A study of Mus musculus with 8 samples.

Results

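The cytosolic ribosomal proteins are the protein subunits of the ribosomes that translate nuclear messages. Those of the small subunit (Rps genes) surround the 18S rRNA and decode the message, and those of the large subunit (Rpl genes) surround the rRNAs that join the amino acids. Their mRNAs are among the most abundant in a growing hepatocyte, and most begin with a 5′ terminal oligopyrimidine (TOP) tract, a run of C and T bases through which mTORC1 and Larp1 control their translation.

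Members were found by gene symbol, without use of their values: every probe that is not a control and whose accession maps to Rpl or Rps followed by a digit, to Rplp0, Rplp1 or Rplp2, or to Rpsa, without the S6 kinases and pseudogenes. This gave 179 of 39429 probes and 88 of 21612 named genes. They comprise 45 large subunit genes, 31 small subunit genes, 11 paralogs and Rps19bp1, whose symbol matches although its product is a regulator of Sirt1 and not a ribosomal protein. The 76 subunit genes were described apart from the paralogs.

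AML12 is a single line of mouse hepatocytes, derived from a mouse transgenic for human TGF-α. The irisin group was 4 samples given 0.5 µg/ml irisin, the circulating peptide cleaved from Fndc5, for 24 h, and the control group was 4 samples cultured for 24 h without it, all in DMEM/F-12 with fetal bovine serum. Each sample gave Cy3-labeled RNA for 1 one-color Agilent array. Nothing states that the samples came from separate cultures, so p-values measure only the spread between these samples, which may be technical. All 9 hepatocyte markers checked, among them Alb and Hnf4a, were well above background on all 8 arrays, as were 2 of 6 fibroblast or stellate, 2 of 4 endothelial, 2 of 4 macrophage or leukocyte and 3 of 4 cholangiocyte markers, the last group including Krt19. Of the tested markers, those lower with irisin at the adjusted p of limma were endothelial Pecam1 and Kdr (log2 changes -0.61 and -0.56), fibroblast Col1a2 (-1.08, beside 0.01 for Col1a1), macrophage Csf1r (-0.49, beside 0.01 for Cd68) and 2 of 9 hepatocyte markers, Krt18 (-0.47) and Trf (-0.39). Of all tested genes 17.9% were lower at that adjusted p, beside 22.2% of the hepatocyte markers. Pecam1 and Col1a2 were dim: both fell in the next to dimmest 10% of tested genes, whose median log2 change was -0.30. No cholangiocyte marker passed the test, and the part of endothelial, fibroblast, macrophage and cholangiocyte cells in the results was not tested. Cell number and RNA per cell cannot be told apart in these bulk samples.

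All control arrays shared 1 slide and scan and all irisin arrays shared another, so that treatment cannot be told apart from slide and scan. Unless stated otherwise, a level is the log2 signal of a probe minus that of the 75th percentile on the same array, a change is the difference of the group means of these levels, and the brightest tested probe stands for its gene. Before scaling, this percentile was 472 ± 70.1 in control (SD, n = 4) and 783 ± 71.6 with irisin (SD, n = 4), a difference of 0.74 on the log2 scale. Every sign below is therefore relative to the rest of the array: with no scaling the median change of the 76 genes was 0.33 and that of all 14312 tested genes 0.67. A probe was tested when well above background on all 4 arrays of a group, and was called when limma gave a change of at least 1.5-fold with a Benjamini-Hochberg adjusted p under 0.05.

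The region around the transcription start is shown for 3 genes whose levels were lower with irisin (Rps10, Rpl4 and Rps21) and for 3 whose levels did not pass the test (Rpl28, Rps7 and Rpl5), to let the start sequences of both kinds be compared. Each runs 5′ to 3′ on the gene's strand from 10 bases before the RefSeq start of GRCm38.p6 through the 20 bases from it. Capitals mark the longest unbroken run of C and T, the first of them where runs are equally long, as in Rps7.
Rps10, chr17:27635225-27635254, minus strand: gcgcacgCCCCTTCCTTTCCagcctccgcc
Rpl4, chr9:64173377-64173406, plus strand: TTTCCTgtgggagcagccgggtagagagga
Rps21, chr2:180257369-180257398, plus strand: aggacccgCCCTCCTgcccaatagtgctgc
Rpl28, chr7:4792955-4792984, plus strand: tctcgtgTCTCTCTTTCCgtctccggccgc
Rps7, chr12:28635934-28635963, minus strand: cggTTTCCacccacctacttccgctgtccc
Rpl5, chr5:107900518-107900547, plus strand: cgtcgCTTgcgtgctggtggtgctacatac
The longest run in these windows was 13 bases in Rps10, 6 in Rpl4, 7 in Rps21, 11 in Rpl28, 5 in Rps7 and 3 in Rpl5. The longest of these runs were in Rps10, which was lower, and in Rpl28, which did not pass the test. The shortest were in Rps7 and Rpl5, which did not pass it either. The marked runs of Rpl4, Rps7 and Rpl5 lie wholly before the RefSeq start, outside the mRNA as annotated. Whether the RefSeq starts are those used in AML12 cells was not tested. The run of Rpl4 begins at the edge of its window, so that it may be longer than printed. Rps21 had 2 start records, and only the first of them is shown.

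Start sequences were listed for 56 of the 76 genes. From 10 bases before the start through the 50 bases from it, 41 of the 56 genes (73.2%) held a C and T run of at least 8 bases, against 6498 of 27025 genes of the table (24%). The letters CTTTC, one form of a pyrimidine tract, stood on the gene's strand of that window in 25 of 56 genes (44.6%) and in 8.48% of all genes, and on either strand in 50% and 16.7%. CTCTT stood on the gene's strand in 46.4% and 9.25%, and on either strand in 50% and 18.6%. CTTCC stood on the gene's strand in 33.9% and 13.8%, and on either strand in 50% and 28.1%. The 3 motifs can overlap each other. CCGGAAG, the core letters of ETS factor sites, was found on either strand of the 300 bases of each record in 23 genes (41.1%) and in 9.93% of all genes, the E-box CACGTG in 10.7% and 8.09%, and AAGATGGC, letters of a YY1 site, in 8.93% and 3.19%. The median log2 change was -0.35 in the subunit genes with CTTTC on the gene's strand and -0.41 in those without it, -0.35 and -0.41 for CTCTT, and -0.41 and -0.39 for CTTCC. For the motifs searched on either strand it was -0.29 with CCGGAAG and -0.41 without it, -0.42 and -0.39 for AAGATGGC, and -0.40 with and without CACGTG. These matches describe letters only.

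All 76 subunit genes were well above background on all 8 arrays. All 76 had a lower mean level with irisin, as did 9160 of all 14312 tested genes. On the control arrays the median level of the 76 genes was 7.08, 6.91, 6.92 and 6.96 in replicates 1 to 4. On the irisin arrays it was 6.53, 6.75, 6.49 and 6.55. The groups did not overlap, and irisin replicate 2 was the highest of its group. Their median log2 change was -0.41 (quartiles -0.49 and -0.27), where that of all tested genes was -0.06. By limma, 57 of the 76 genes (75%) were lower at the adjusted p alone, against a background of 17.9% of all tested genes, and 0 were higher (background 2.65%; at an unadjusted p under 0.05, 68 lower and 0 higher). All 4 irisin arrays lay below all 4 control arrays in 63 genes (82.9%), against a background of 19.7%.

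The changes were small. At the threshold of 1.5-fold, 5 of the 76 genes (6.58%) were called lower against a background of 10.2%, and 0 were called higher (background 0.531%). Leaving out irisin replicate 2 raised the 5 genes to 12 (background 11%). Leaving out control replicate 1 or irisin replicate 4 left 2 (background 11.1% and 10.3%). Of 173 tested member probes, 9 were called lower (background 11.7%), in Rps10, Rpl17, Rpl13a, Rpl7, Rpl7a, Rpl4 and Rps21. At the adjusted p alone, 114 of the 173 probes were lower (background 21.6%) and 0 were higher (background 2.96%; at an unadjusted p under 0.05, 135 lower and 1 higher), and the median over the probes was -0.38 against -0.08 over all tested probes.

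**Figure D1:**
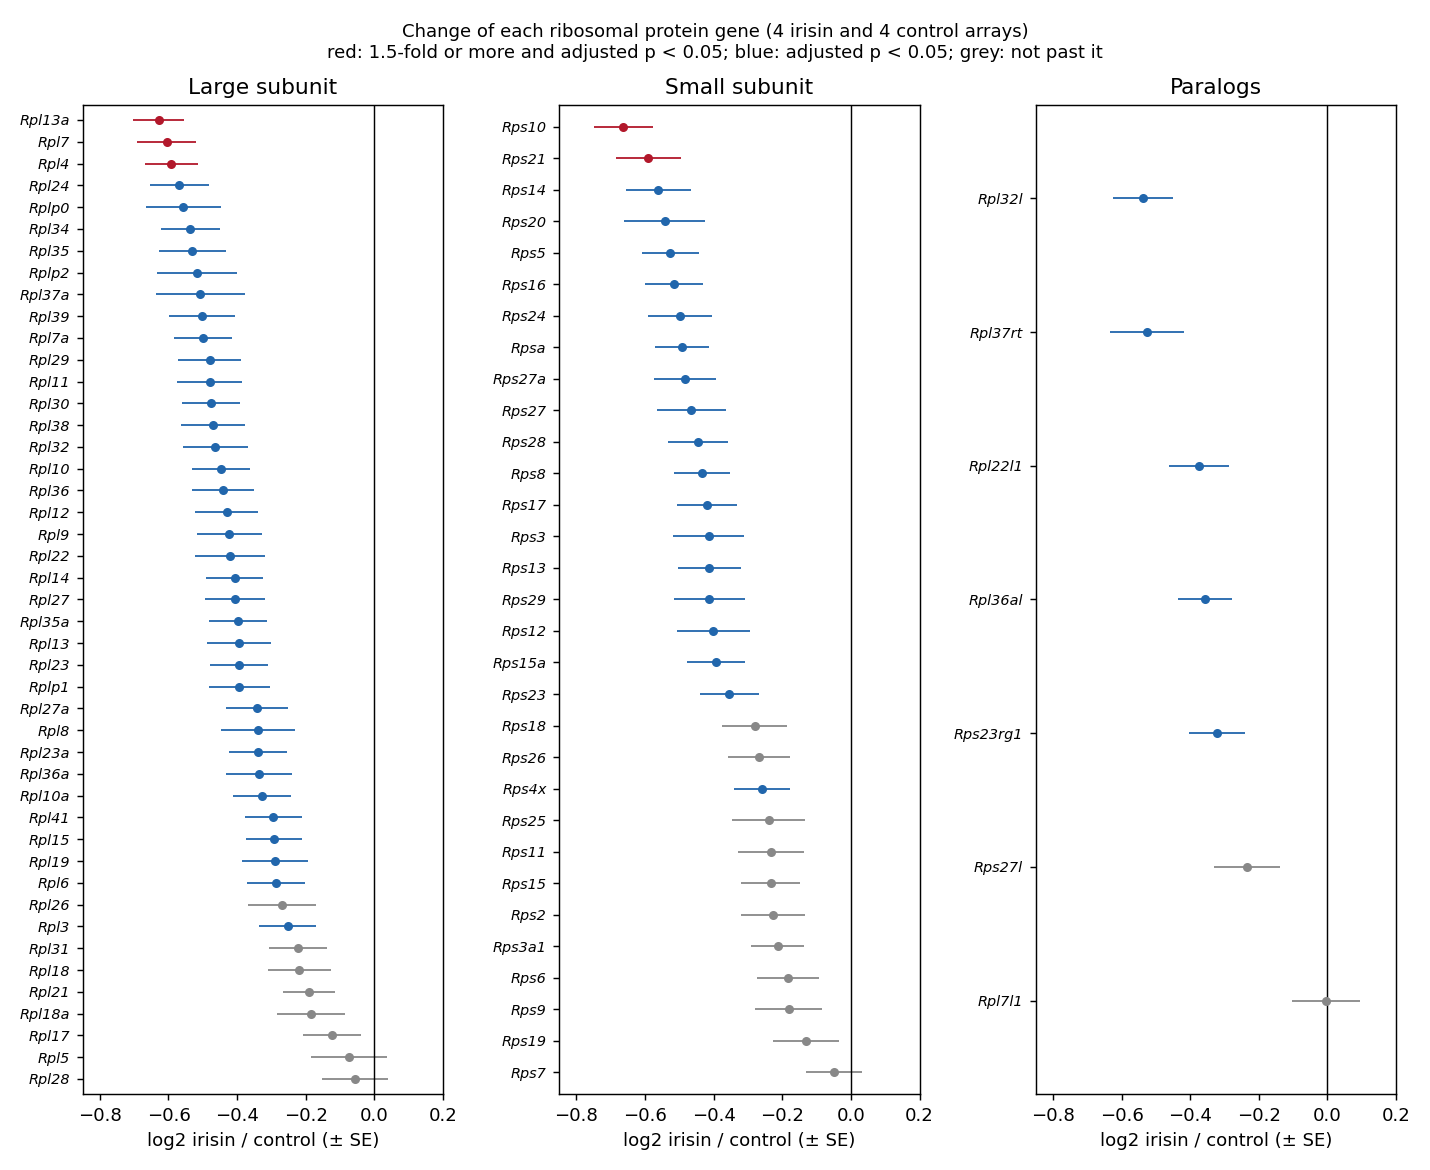
Log2 change (irisin over control, mean ± SE from limma, 4 arrays a group) of each tested gene of the large subunit, the small subunit and the paralogs, relative to the 75th percentile of each array. All 76 subunit genes lie below 0, from -0.66 (Rps10) to -0.05 (Rps7), and both subunits span nearly the same range; with no scaling between arrays all 76 lie above 0.

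Large and small subunit genes had nearly the same median log2 change, -0.41 in both, with 37 of 45 large subunit genes (82.2%) and 20 of 31 small subunit genes (64.5%) lower at limma's adjusted p, and 3 and 2 genes called at 1.5-fold. Whether these shares differ was not tested. The large subunit median minus the small subunit median was 0.0046. On single arrays, the large subunit median minus the small subunit median was 0.02, 0.02, 0.02 and -0.05 in the control replicates and 0.12, -0.03, 0.03 and -0.01 in the irisin replicates. The groups overlapped in this difference, whose mean was 0.0022 ± 0.0378 (SD, n = 4) in control and 0.027 ± 0.065 (SD, n = 4) with irisin. A difference between the subunits below that spread could not be seen.

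The largest decrease was that of Rps10, a small subunit protein whose gene is mutated in some families with Diamond-Blackfan anemia, an inherited failure of red cell production. Its level was 7.70, 7.57, 7.50 and 7.55 in the control replicates and 6.90, 7.07, 6.84 and 6.85 in the irisin replicates. The groups lay well apart, and the fold was 1.58 lower with irisin (log2 change -0.66 ± 0.09 SE, limma adjusted p = 0.00035). Rps21, another small subunit protein, had levels of 5.70, 5.51, 5.56 and 5.70 in control and 4.90, 5.20, 5.09 and 4.93 with irisin. The highest irisin array again stood below the lowest control array (1.51-fold lower, limma adjusted p = 0.0011).

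Among large subunit proteins, Rpl13a, which can leave the ribosome to silence selected inflammatory mRNAs, had levels of 6.81, 6.63, 6.69 and 6.70 in control and 6.04, 6.11, 6.08 and 6.09 with irisin. Its irisin arrays were the closest together of the 5 called genes, and the change was 1.55-fold lower (limma adjusted p = 0.00024). For Rpl7, an RNA-binding protein of the large subunit, levels were 6.59, 6.48, 6.48 and 6.51 in control and 5.91, 6.08, 5.84 and 5.80 with irisin. The gap between the groups exceeded the spread within either, at 1.52-fold lower (limma adjusted p = 0.00053). Rpl4, which lines the tunnel through which the new peptide leaves, measured 5.93, 5.77, 5.83 and 5.86 in control and 5.24, 5.33, 5.29 and 5.17 with irisin. It too did not overlap between groups and was 1.51-fold lower (limma adjusted p = 0.00039). For each of these 5 genes the exact two-sided permutation test gave p = 0.0286, the smallest that 4 arrays against 4 allow.

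The acidic stalk, the flexible arm of the large subunit that recruits elongation factors, is made of Rplp0, Rplp1 and Rplp2. All 3 were lower at limma's adjusted p without reaching 1.5-fold. Rplp0, the base of the stalk, had levels of 7.90, 7.50, 7.58 and 7.62 in control and 7.04, 7.30, 7.003 and 7.02 with irisin. Irisin replicate 2 stood above the other irisin arrays, yet below all control arrays (log2 change -0.56 ± 0.11 SE, limma adjusted p = 0.0034). The log2 changes of Rplp2 and Rplp1 were -0.52 and -0.39 (limma adjusted p = 0.0075 and 0.0073).

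Rpl5 and Rpl11 enter the large subunit together with the 5S rRNA, and when free bind Mdm2, the ubiquitin ligase of p53. Rpl11 had levels of 7.21, 7.09, 7.12 and 7.16 in control and 6.71, 6.86, 6.61 and 6.48 with irisin, with no overlap (log2 change -0.48 ± 0.09 SE, limma adjusted p = 0.0035). Rpl5 measured 6.78, 6.24, 6.51 and 6.53 in control and 6.42, 6.53, 6.41 and 6.39 with irisin. Its control arrays spanned all of its irisin arrays, and the log2 change was -0.07 ± 0.11 SE (limma adjusted p = 0.70). Whether these partners differ in response was not tested.

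The 9 genes listed for Diamond-Blackfan anemia spread over most of the range of the family. Lower at limma's adjusted p were 5 of them (55.6%, against a background of 17.9%), among which were Rps10, Rps24 (-0.50), Rpl11 and Rpl35a (-0.40). The other 4 did not pass: Rps26 (-0.27, adjusted p = 0.053), Rps19 (-0.13), Rpl5 and Rps7. Rps19, the gene most often mutated in that anemia and needed to mature the small subunit rRNA, had levels of 5.40, 5.31, 5.56 and 5.51 in control and 5.14, 5.42, 5.28 and 5.42 with irisin, so that the groups overlapped.

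Among the 76 subunit genes, the smallest changes were those of Rps7 and Rpl28. Rps7, which like Rpl5 and Rpl11 can bind Mdm2, had levels of 6.44, 6.26, 6.45 and 6.35 in control and 6.27, 6.42, 6.27 and 6.34 with irisin, a log2 change of -0.05 ± 0.08 SE (limma adjusted p = 0.74). Rpl28, a large subunit protein, measured 6.52, 6.47, 6.44 and 6.46 in control and 6.22, 6.63, 6.41 and 6.40 with irisin (-0.06 ± 0.10 SE, adjusted p = 0.74). In both genes the groups overlapped. Rps6, the substrate of the S6 kinases downstream of mTORC1, also overlapped between groups, with 6.88, 6.74, 6.76 and 6.78 in control and 6.61, 6.81, 6.47 and 6.55 with irisin (-0.18 ± 0.09 SE, adjusted p = 0.19). Rps9 (-0.18), a structural protein, likewise did not pass the test, whereas Rpsa, which also serves as a laminin receptor at the cell surface, was lower (-0.49, limma adjusted p = 0.0011). Rpl24 (-0.57), Rps14 (-0.56) and Rps20 (-0.54), further structural proteins, were lower and fell short of 1.5-fold.

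**Figure D2:**
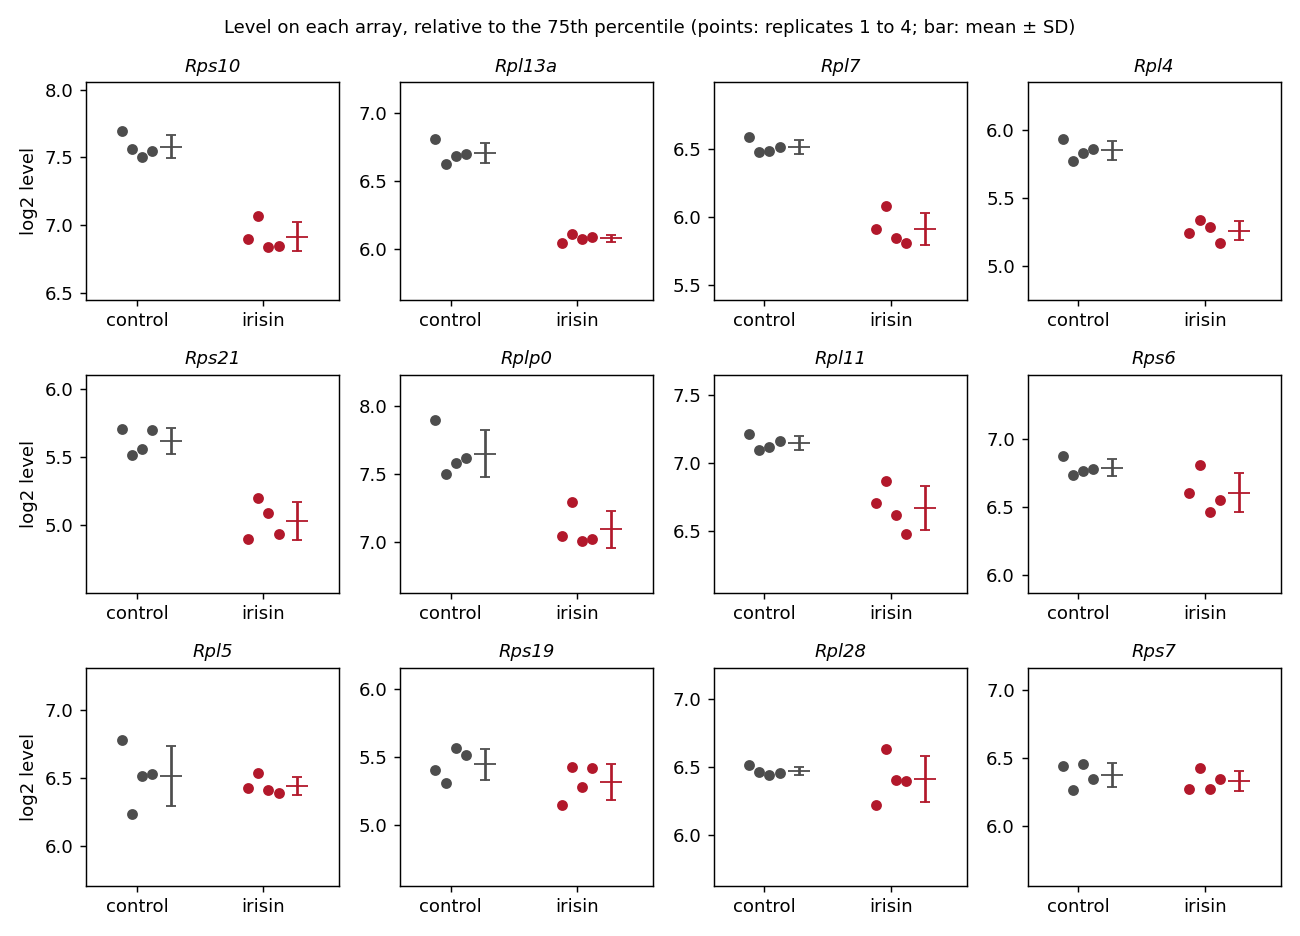
Log2 level on each array, relative to the 75th percentile of that array, of 12 genes, with points for replicates 1 to 4 and a bar for the mean ± SD of each group of 4 (each panel spans the same range of log2). Rps10, Rpl13a, Rpl7, Rpl4, Rps21, Rplp0 and Rpl11 do not overlap between groups, whereas Rps6, Rpl5, Rps19, Rpl28 and Rps7 do; with no scaling all 12 changes are above 0.

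Of the 11 paralogs, 7 were tested and 4 were not. None of the 8 arrays had the tissue-restricted paralogs well above background: Rpl3l, which replaces Rpl3 in skeletal muscle and heart, and Rpl10l and Rpl39l, which replace Rpl10 and Rpl39 in the male germ line. Rps4l, a paralog of the X-linked Rps4x, was well above background on 3 of 8 arrays. Their parent genes were all bright, with Rpl3 (-0.25), Rpl10 (-0.45), Rpl39 (-0.50) and Rps4x (-0.26) lower at limma's adjusted p.

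The 7 tested paralogs had a median log2 change of -0.36, and 5 of them were lower at the adjusted p (71.4%, against the same background of 17.9%). Rpl32l and Rpl37rt, copies close in sequence to Rpl32 and Rpl37, changed by -0.54 and -0.53 (limma adjusted p = 0.0012 and 0.0041), and their probes may read the parent transcripts. Rpl22l1, which can take the place of Rpl22, had levels of 5.80, 5.59, 5.62 and 5.77 in control and 5.23, 5.46, 5.31 and 5.30 with irisin, with no overlap (-0.37 ± 0.09 SE, limma adjusted p = 0.0091). Its parent Rpl22 changed by -0.42 (adjusted p = 0.012). Rpl36al, expressed beside Rpl36a, changed by -0.36 (adjusted p = 0.0072) and Rpl36a by -0.34 (adjusted p = 0.027). The dim Rps23rg1, a retroposed copy of Rps23, was lower by limma (-0.32, adjusted p = 0.014), beside -0.35 for Rps23. Rps27l, which p53 can induce, changed by -0.23 ± 0.10 SE (adjusted p = 0.11). Rpl7l1, whose product acts in ribosome assembly, stood at 0.56, 0.63, 0.81 and 0.56 in control and 0.78, 0.71, 0.46 and 0.59 with irisin, so that the groups overlapped fully (adjusted p = 0.99), as did those of Rps19bp1 (0.08 ± 0.09 SE, adjusted p = 0.62).

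Ribosomal proteins whose symbols fall outside the pattern were also lower. Rack1, the scaffold on the small subunit head, changed by -0.55, and Fau, the ubiquitin-like precursor of Rps30, by -0.53 (limma adjusted p = 0.00085 and 0.0024). Of 16 other genes with TOP mRNAs, among them elongation factors, 7 (43.8%) were lower at the adjusted p against a background of 17.9%. At 1.5-fold 0 were called lower against 10.2%, and the changes of the 16 ran from -0.44 to 0.13 with a median of -0.18. The 7 lower genes were bright, with levels above 5 on all 8 arrays, as were Eef1d, Eef1g, Eef2 and Pabpc1, which did not pass. Of genes other than the subunit genes, 18.5% were lower between levels of 5 and 6. This share was 50.6% between 6 and 7 and 84.6% between 7 and 8. None of 9 ribosomal protein chaperones and TOP regulators was lower or higher at the adjusted p (median -0.04, 1 lower at an unadjusted p under 0.05). These 9 were dimmer, with levels from -3.21 (Tsr2) to 5.26 (Larp1). The part of brightness in these counts was not tested. In the group of Mdm2, Mdm4, p53 and its target Cdkn1a, 1 of 4 was called higher, against a background of 0.531%. The gene for p53, Trp53, had levels of -1.10, -1.04, -0.95 and -0.64 in control and -0.71, -0.05, -0.05 and -0.21 with irisin. Irisin replicate 1 overlapped with the control arrays (log2 change 0.68 ± 0.16 SE, limma adjusted p = 0.0091), and the value was 0.62 to 1.42 under the 5 other scalings and background corrections tried. Mdm2, Mdm4 and Cdkn1a were -0.18, 0.18 and -0.09, and did not pass the test.

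The change varied with brightness at both ends of the signal range. In the dimmest 10% of tested genes the median log2 change was -0.57, and in the next 10% it was -0.30, and neither held a subunit gene. All 76 subunit genes fell in the brightest 10% of tested genes, and the other genes of that group had a median log2 change of -0.14. Within steps of 1 log2 unit of mean level, chosen after the values were seen, the medians drew closer. Between levels of 7 and 8 the median was -0.45 in 23 subunit genes and -0.37 in 26 other genes, with 91.3% and 84.6% lower at the adjusted p. Between 6 and 7 it was -0.35 in 43 subunit genes and -0.30 in 166 other genes (72.1% and 50.6% lower). Between 5 and 6 it was -0.32 in 10 subunit genes and -0.17 in 390 other genes (50% and 18.5% lower). Other genes of like signal thus also had lower levels with irisin, and whether the subunit genes differ from them within a step was not tested.

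**Figure D3:**
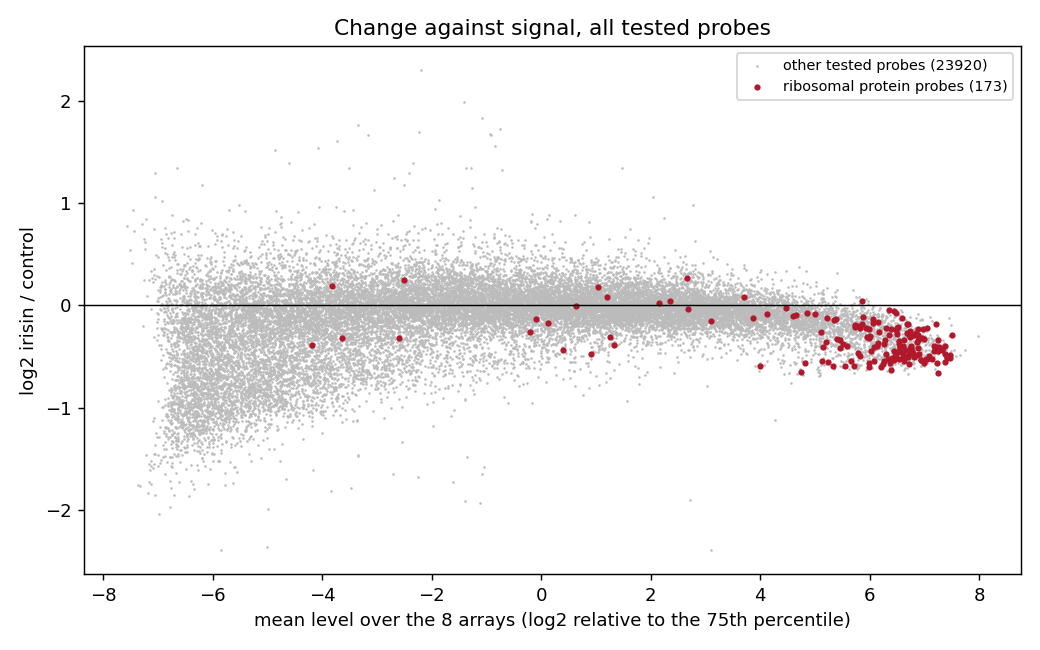
Log2 change (irisin over control) against the mean level over the 8 arrays for each tested probe, both relative to the 75th percentile, with 173 ribosomal protein probes in red and 23920 other probes in gray. Most red points crowd at the bright end, where gray points also bend below 0, as they do at the dimmest end, while the dim ribosomal protein probes scatter around 0; with no scaling the median of the 76 subunit genes is 0.33.

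Bright spots were read in a scan of low gain and scaled up by the scanner software, and most ribosomal protein probes were of this kind. All 8 arrays took the low-gain scan for 129 of 173 tested member probes, none did for 25, and 19 were mixed. The median log2 change was -0.41 in the 129 probes (76% lower at the adjusted p), -0.26 in the 19 mixed probes (52.6%) and -0.12 in the 25 probes of the high-gain scan (24%, against 19.9% of 22176 other probes read in that scan on all 8 arrays, whose median was -0.06). Of 890 other probes read in the low-gain scan on all 8 arrays, 59% were lower, with a median of -0.32. The scan took in more probes on the irisin arrays, 1723 ± 97.8 (SD, n = 4) against 1227 ± 152 (SD, n = 4). No spot was saturated. The part of the scan in the decrease was not tested.

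Different probes of a gene gave a further view. Of 53 genes with several tested probes, 45 had all of them below 0, 8 had probes of both signs, and 22 had all of them lower at the adjusted p. The median range between the probes of a gene was 0.18. All 4 probes of Rps27, a small subunit protein with a zinc finger, lay between -0.51 and -0.40, and all 4 of Rpl7 between -0.61 and -0.30. Rpl13a was called by its brightest probe alone: the other 2 probes changed by -0.07 and -0.09. Rpl17, which lies near the tunnel exit, had 7 probes from -0.65 to 0.04, and the 2 called probes were not its brightest (-0.12). In Rps15a, Rpl22, Rpl30 and Rpl21 the dimmest probe had a change above 0 beside bright ones below 0; another dim probe of Rpl21 was at -0.17. Ribosomal protein genes have many processed pseudogenes, and whether dim probes read these, unspliced RNA or other ends of the transcript was not tested.

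**Figure D4:**
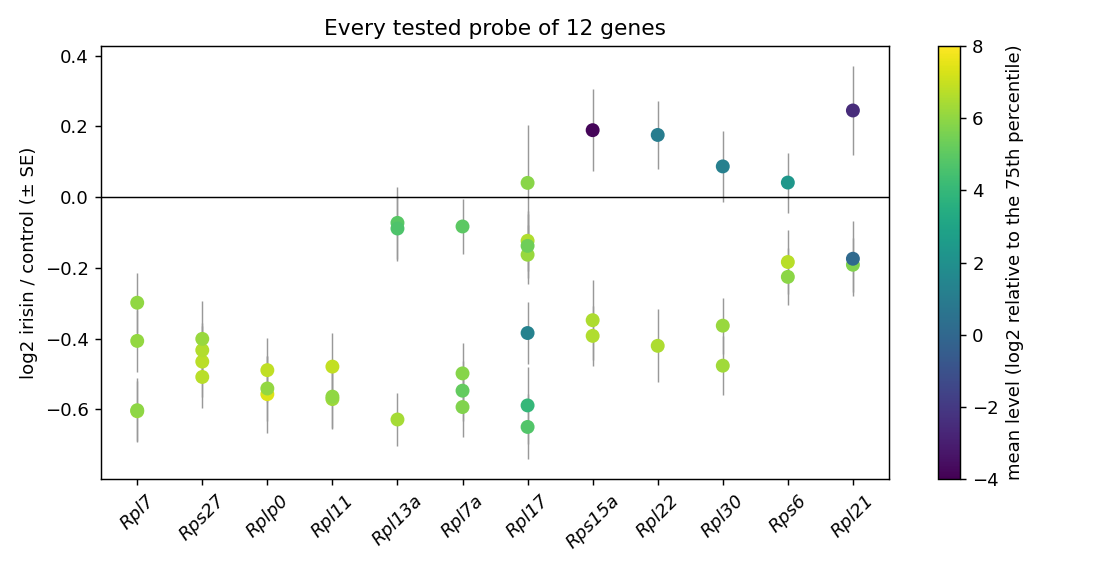
Log2 change (irisin over control, ± SE from limma) of every tested probe of 12 genes, relative to the 75th percentile, colored by the mean level of the probe over the 8 arrays. The probes of Rpl7, Rps27, Rplp0 and Rpl11 all lie below 0, whereas Rpl17 spans -0.65 to 0.04 and the dimmest probe of each of Rps15a, Rpl22, Rpl30, Rps6 and Rpl21 lies above 0; with no scaling the representative probe of each of the 12 genes is above 0.

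The sign and size of the change depended on how the arrays were scaled. Without scaling, the median signal of the 76 genes was 50176 to 64773 on the control arrays and 72079 to 79877 on the irisin arrays, so that the ribosomal protein signal was higher on every irisin array, by 0.35 on the log2 scale. The rest of the array rose more. With no scaling the median change of the 76 genes was 0.33, with 31 genes higher at the adjusted p against a background of 82.8% of all tested genes, and with scaling to 8 spike-in probes, RNAs added in known amounts, it was 0.17 against 0.51 for all genes, with 0 of the 76 genes lower or higher at limma's adjusted p (background 1.48% and 42.4%; at an unadjusted p under 0.05, 0 lower and 4 higher). The mean log2 signal of the spike-in probes was 11.61 ± 0.18 in control (SD, n = 4) and 11.77 ± 0.33 with irisin (SD, n = 4). It ran from 11.32 to 12.05 on the irisin arrays, a spread that enters every level scaled to it and limits what can pass the test. Scaling by a constant moves all genes of an array alike, so that the median of the 76 genes relative to that of all tested genes (-0.34) cannot change with it. Quantile normalization, which gives every array the same distribution of signal, left a median of -0.01 (7 genes lower and 4 higher, background 9.87% and 6.51%), and cyclic loess, which removes trends with brightness, left -0.16 (23 lower and 0 higher, background 9.96% and 7.36%). Rps10, Rpl13a, Rpl7, Rpl4 and Rps21 stayed below 0 under both, at -0.24 to -0.38 and -0.40 to -0.42, without reaching 1.5-fold.

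**Figure D5:**
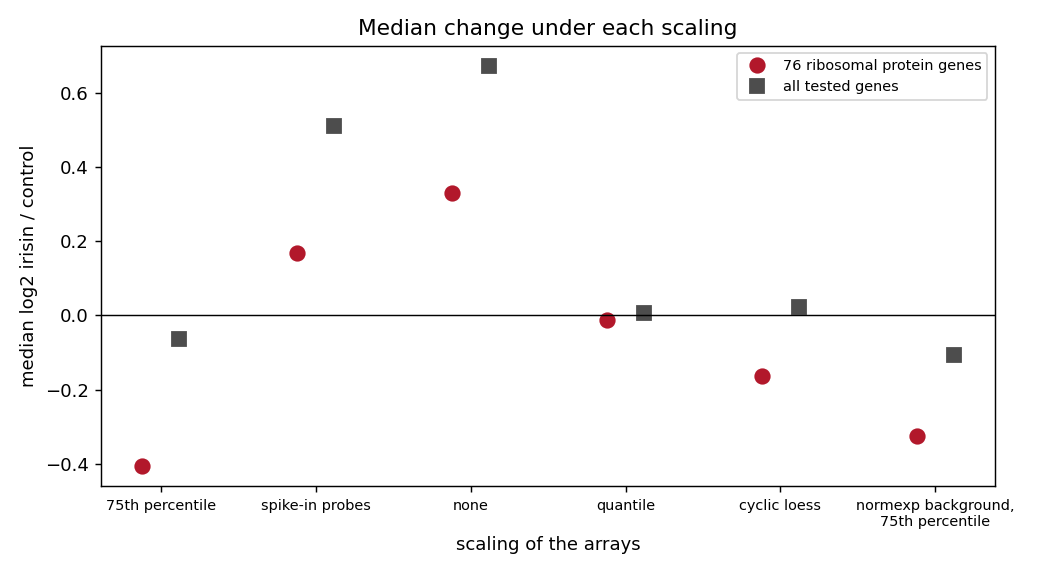
Median log2 change (irisin over control) of the 76 subunit genes (circles) and of all tested genes (squares) under 6 ways of scaling the 8 arrays or correcting their background. The circle lies below the square in each, but its sign turns from -0.41 with the 75th percentile to 0.17 with spike-in probes and 0.33 with no scaling, and with quantile normalization it lies -0.02 from the square.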

How the data were processed

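The authors labeled total RNA with Cy3, hybridized it to Agilent mouse arrays and processed the scans with Agilent Feature Extraction (12 per the labels, 12.0.3.1 per the file headers). They deposited intensity on a linear scale, background-subtracted and not normalized between arrays; the deposited value table holds the same intensity values (largest deviation 5e-04%). The methods name an array design for the livers that differs from the one in these file headers. Members, lists and tests were chosen with earlier results of these data known.

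Control spots and spots marked as outliers (at most 0.463% of an array's 43020) were left out, and spots of a probe were averaged. The log2 intensity was taken relative to the array's 75th percentile. Accessions of 72.7% of the probes were matched to symbols of the RefSeq table of GRCm38.p6, which also supplied the start sequences. The 24093 tested probes were fitted with limma 3.58.1 (lmFit and eBayes, no covariates) in R 4.3.3, with Benjamini-Hochberg adjustment over all of them for probes and genes alike. The thresholds of 1.5-fold and 0.05 are those of the methods. Figures were drawn with matplotlib 3.10.9 in Python 3.11.15.

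The genes named by rule were the called members, the 10 largest and 10 smallest changes, the stalk, 5S particle and Diamond-Blackfan genes, the paralogs, Rpsa, Rps6, Rps19bp1, Fau and Rack1, and called genes of the lists; a few genes that the rule names are not reported here. The parents of paralogs and the genes of the probe comparison were chosen after their values were seen. Alternatives were other background corrections (normexp, offset 50), scalings, filters, variance models and thresholds, the methods' test, the mean over a gene's probes, the replicate block and each array left out. Added after seeing the data were the normexp fit on 1000 quantiles, the high-gain probes alone and the inclusion of the paralogs. In data simulated from the 4 arrays against 4, limma recovered 88.5% of 200 changed probes at a log2 change of 1 and called 9 unchanged ones. No tested member changed by that much (largest -0.66, Rps10), so this share does not give the recovery of changes as small as theirs. The number of arrays limits the precision.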

Additional observations from a re-analysis of the deposited data

Results flagged for a closer look

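Among 72 groups of 4 arrays checked for an array far from the other 3, 3 had one, and chance gives about 1 in 20. Irisin replicate 2 stood above the other irisin arrays in Rplp0 (7.30 against 7.003 to 7.04) and Rpl37rt (6.96 against 6.70 to 6.74, on the log2 scale relative to the 75th percentile). Control replicate 4 stood below the other control arrays in the large minus small subunit median (-0.054 against 0.02 in each of the others).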

How the results depend on the processing

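The median change of the 76 genes was -0.41 and stayed within the spread between replicates with scaling to detected probes, the deposited value table, other filters, marked spots kept and another variance model. It was -0.58 with normexp fitted on all spots, where the fitted background of irisin replicates 2 and 4 fell to -306 and -395 beside about -10.0 on control replicate 1, and where 0 probes and 0 genes were called in the whole series; the cause was not tested. It was -0.16 with cyclic loess, -0.013 with quantile normalization, -0.12 over 25 high-gain probes, 0.17 when scaled to the spike-in probes and 0.33 unscaled. Unless the 76 genes are named, the called counts that follow cover all 173 probes and 84 genes tested, paralogs and Rps19bp1 included. Against 9 probes and 5 genes called lower, 0 probes and 0 genes were called with both normexp fits, quantile normalization and cyclic loess. The background of all tested genes called lower was 13.4% with normexp on 1000 quantiles, 3.81% with quantile normalization and 3.41% with cyclic loess. With spike-in scaling 9 probes and 1 gene were called higher, against a background of 33.7% of all tested genes. That gene was Rps19bp1 (0.66), which is not a ribosomal protein, and 0 of the 76 genes were called higher. With no scaling 29 probes and 7 genes were called higher, 5 of these genes among the 76, against a background of 66.8%. The mean over a gene's probes called 3 genes, and the high-gain probes held 1 called probe. The adjusted p alone gave 114 probes and 62 genes lower (background 21.6% and 17.9%). Leaving out 1 array gave medians from -0.46 to -0.37, 3 to 30 probes and 2 to 13 genes. The background of all tested genes called lower then ran from 9.64% to 11.1%. The replicate numbers did not pair the arrays (correlations of deviations 0.13, -0.38, -0.14 and 0.18). With the replicate block, 9 probes and 5 genes were called (background 10.3% of genes). With that block, 47 of the 76 genes were lower at the adjusted p in place of 57 (background 16.2%). With the methods' test 9 probes and 5 genes were called (background 9.42% of genes). The large minus small subunit difference stayed within the spread between replicates under every alternative, from -0.02 to 0.02 with 1 array left out.

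Named genes turned sign as follows. With no scaling, the log2 changes were Fau 0.21, Rack1 0.19, Rpl11 0.26, Rpl13a 0.11, Rpl17 0.61, Rpl22l1 0.36, Rpl24 0.17, Rpl28 0.68, Rpl32l 0.20, Rpl35a 0.34, Rpl36al 0.38, Rpl37rt 0.21, Rpl4 0.15, Rpl5 0.66, Rpl7 0.13, Rpl7a 0.24, Rpl7l1 0.73, Rplp0 0.18, Rplp1 0.34, Rplp2 0.22, Rps10 0.075, Rps14 0.18, Rps19 0.61, Rps20 0.20, Rps21 0.15, Rps23rg1 0.42, Rps24 0.24, Rps26 0.47, Rps27l 0.50, Rps6 0.55, Rps7 0.69, Rps9 0.56 and Rpsa 0.25. With spike-in scaling they were Fau 0.052, Rack1 0.031, Rpl11 0.098, Rpl17 0.45, Rpl22l1 0.20, Rpl24 0.0083, Rpl28 0.52, Rpl32l 0.040, Rpl35a 0.18, Rpl36al 0.22, Rpl37rt 0.051, Rpl5 0.50, Rpl7a 0.078, Rpl7l1 0.57, Rplp0 0.020, Rplp1 0.18, Rplp2 0.059, Rps14 0.016, Rps19 0.45, Rps20 0.035, Rps23rg1 0.26, Rps24 0.078, Rps26 0.31, Rps27l 0.34, Rps6 0.39, Rps7 0.53, Rps9 0.40 and Rpsa 0.085. With quantile normalization they were Rpl17 0.24, Rpl28 0.29, Rpl5 0.28, Rplp1 0.018, Rps19 0.099, Rps26 0.096, Rps27l 0.10, Rps6 0.18, Rps7 0.28 and Rps9 0.22. With cyclic loess they were Rpl17 0.11, Rpl28 0.17, Rpl5 0.15, Rpl7l1 0.0038, Rps19 0.040, Rps6 0.052, Rps7 0.17 and Rps9 0.081. Normexp gave Rps19bp1 -0.14 and Rps23rg1 0.11, and normexp on 1000 quantiles Rpl28 0.11, Rpl5 0.041 and Rps19 0.035. With 1 array left out, Rpl5 ran from -0.17 to 0.014, Rpl28 from -0.13 to 0.0084 and Rpl7l1 from -0.053 to 0.055.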
